A study of Mus musculus with 4 samples.

Results

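Interferon-stimulated antiviral genes are the 41 mouse genes described here: sensors of foreign RNA and DNA, the factors that transcribe the response, and the enzymes and membrane proteins that block viruses. They were taken by gene symbol, a rule that uses no measured value. The set itself was chosen with earlier results of these data known. All 41 symbols were found among the 54532 rows of the count table, none was absent, and all 41 were among the 15993 genes with enough counts to be tested. The irradiated group was 2 libraries of mCherry-positive cells from MMTV-PyMT tumors given targeted radiation on day 30, and the unirradiated group was 2 libraries of the same kind of cells from tumors left without radiation. Both groups share the C57BL/6 strain, the polyoma middle T oncogene driven by the mammary MMTV promoter, MFP injection of PyMT cells carrying the Dll1 reporter, and the reporter itself, which marks cells that express the Notch ligand Dll1. After digestion, tumor cells were enriched by a sort on CD45, CD31 and TER119, surface proteins of leukocytes, endothelial cells and the red cell lineage. A second sort took mCherry-positive cells, whose poly(A) RNA was sequenced. The labels give no radiation dose, no time from radiation to collection, no animal age and no statement that libraries came from separate animals, so a p-value reflects the spread of the libraries alone, which could be technical.

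Interferons are secreted proteins that signal through cell surface receptors and the kinases JAK1 and TYK2 to transcription factors, STAT2 and IRF9 among them, that bind a promoter element called the interferon-stimulated response element (ISRE). The genes they switch on detect viral nucleic acid, degrade or mask viral RNA, attach the ubiquitin-like protein ISG15 to other proteins, and feed back on the signal. Tumor cells can carry this program without infection, and DNA damage by radiation is known to induce it through sensing of DNA in the cytosol.

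Summed counts were 19931303 and 18903631 in irradiated 1 and irradiated 2 and 20817997 and 16811888 in unirradiated 1 and unirradiated 2. The irradiated pair was far less alike than the unirradiated pair, with a biological coefficient of variation across genes of 39.1% against 5.93%. Epithelial markers were abundant in every library, with the summed level of 10 such genes, among them Epcam and Krt8, at 11970 and 9731 CPM (counts scaled to library size, with TMM factors) in the irradiated libraries and 11546 and 11103 CPM in the unirradiated ones. Dll1 itself, the gene behind the sort, was at 146 and 80.2 CPM in irradiated cells and 130 and 129 CPM in unirradiated cells. Markers of cells that the sort should remove were far higher in irradiated 2 than in any other library. The 15 macrophage and monocyte markers summed to 91.4 CPM in irradiated 1, 645 CPM in irradiated 2 and 28.8 and 23.9 CPM in unirradiated cells. In bulk RNA, fewer cells of a type and less RNA per cell cannot be told apart. Codes in the sample titles differ between the groups, so radiation and any handling those codes stand for cannot be told apart.

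The antiviral genes were well expressed in Dll1-positive tumor cells with or without radiation. Per length, 39 of the 41 lay above the middle of all tested genes, and the median member stood at the 79.4th percentile. The highest level was that of Irf1, a transcription factor gene of the interferon response, at 165 CPM per kb over the 4 libraries. Next came Bst2, which encodes tetherin, a membrane protein that holds budding virions on the cell, at 138 CPM per kb, and Isg15 at 107 CPM per kb. The lowest were Oas3 at 2.40 and Herc6 at 2.21 CPM per kb. Counts per member and library ran from 145 to 14492, which sets the counting error at between 0.963% and 8.30% for the lowest library of each gene.

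**Figure D1:**
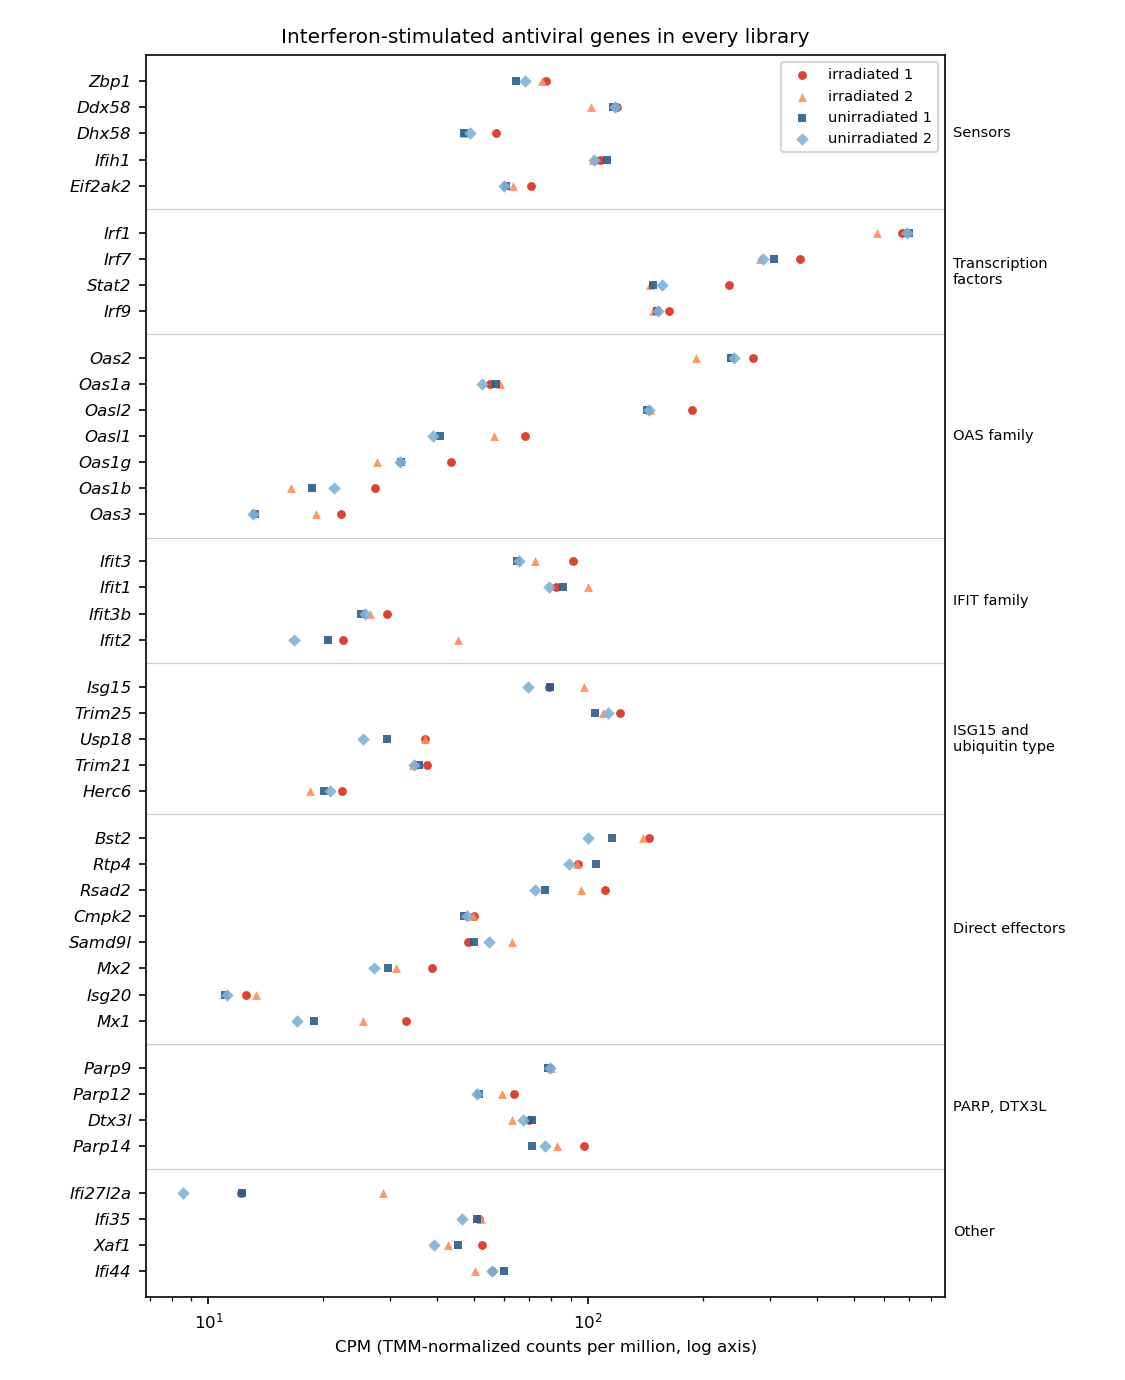
CPM (log axis) of the 41 members, ordered by role and by level per length, with 1 point per library. Irf1 is the most abundant at 574 to 697 CPM, and in many genes the points lie close together. Irradiated 2 stands apart in Ifit2 and Ifi27l2a, and irradiated 1 in Stat2, Oas1b and Oas1g. In Oas3 and Oasl1 both irradiated libraries lie above the unirradiated ones.

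The promoters were searched because ISRE-type elements are what the members are known to have in common, which the choice by symbol did not use. RefSeq sequences (GRCm38.p6, 250 bases before to 50 after each annotated start) were matched by symbol for 30 of the 41 members, with 35 starts. The ISRE-type motif, GAAA followed by any 2 bases and a further GAAA, searched on both strands, was present for 14 of these 30 genes (46.7%), against 3.99% of all 27025 genes with such a sequence. By start, 14 of 35 member promoters (40.0%) held it, against 3.44% of 32851. The GAS-type motif TTCNNNGAA, a palindromic element of interferon gamma responses, was present for 7 of 30 members (23.3%) against 9.55% of all genes. The 2 motifs may overlap. A longer form, which contains the first and goes on with CT, was present for 7 of 30 members against 0.303% of all genes. A match is only a match of letters. The ISRE-type motif was found for Ifih1, Ddx58, Eif2ak2, Stat2, Oas1a, Oas1g, Oas3, Ifit1, Ifit3, Ifit3b, Isg15, Trim21, Rsad2 and Bst2, and these letters were not in the windows of, for example, Oasl1, Irf1 and Irf7.

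Stretches of 90 bases upstream of the start are printed for some of the members with a match there, pairs of near copies among them. They run 5′ to 3′ on the strand of the gene, with each ISRE-type match on either strand in capitals. A match on the opposite strand reads TTTC, any 2 bases and TTTC. The Isg15, Oas1a, Oas1g and Bst2 matches overlap each other and so form longer runs.
Ifit1: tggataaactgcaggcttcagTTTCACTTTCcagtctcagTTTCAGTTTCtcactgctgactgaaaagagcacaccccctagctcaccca
Ifit3: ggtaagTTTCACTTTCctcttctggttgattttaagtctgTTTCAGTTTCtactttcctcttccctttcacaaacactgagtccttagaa
Ifit3b: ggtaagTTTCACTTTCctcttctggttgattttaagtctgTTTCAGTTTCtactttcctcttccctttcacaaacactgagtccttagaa
Oas1a: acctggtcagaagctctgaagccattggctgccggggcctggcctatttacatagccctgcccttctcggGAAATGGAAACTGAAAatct
Oas1g: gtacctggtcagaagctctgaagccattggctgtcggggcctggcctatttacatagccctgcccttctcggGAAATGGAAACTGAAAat
Oas3: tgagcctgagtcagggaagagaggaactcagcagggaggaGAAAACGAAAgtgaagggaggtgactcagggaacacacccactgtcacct
Isg15: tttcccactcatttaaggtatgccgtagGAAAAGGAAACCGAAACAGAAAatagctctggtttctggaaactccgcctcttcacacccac
Rsad2: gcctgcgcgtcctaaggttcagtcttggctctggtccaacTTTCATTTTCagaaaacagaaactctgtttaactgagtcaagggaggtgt
Bst2: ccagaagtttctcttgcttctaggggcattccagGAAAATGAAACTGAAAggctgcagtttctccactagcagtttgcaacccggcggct
The Ifit3 stretch (chr19:34583367-34583456, plus strand) and the Ifit3b stretch (chr19:34607763-34607852, plus strand) were identical at 90 of 90 bases. The Oas1a stretch (chr5:120907526-120907615, minus strand) and the Oas1g stretch (chr5:120887614-120887703, minus strand) were identical at 87 of 88 aligned bases. The others are Ifit1 (chr19:34640764-34640853, plus), Oas3 (chr5:120777685-120777774, minus), Isg15 (chr4:156200835-156200924, minus), Rsad2 (chr12:26456523-26456612, minus) and Bst2 (chr8:71537547-71537636, minus). The 14 members with the ISRE-type motif had a median log2 fold change of 0.16 and the 16 without it 0.091, a description with no test.

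**Figure D2:**
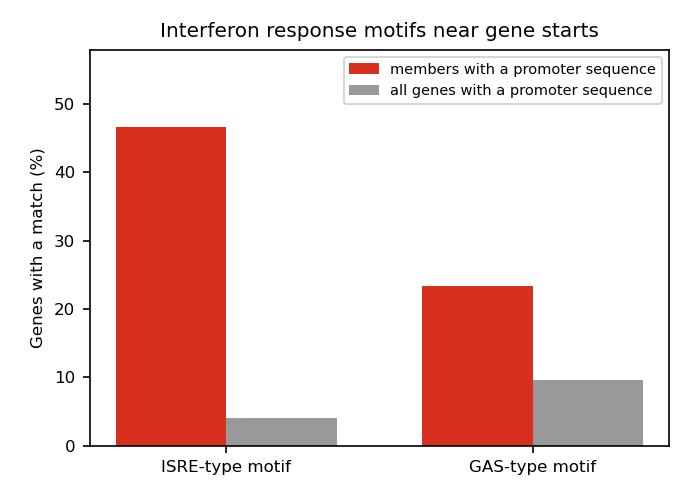
Share of genes (percent) with a match to the ISRE-type or GAS-type motif in the 300 bases around an annotated start, for the 30 members with a promoter sequence (left bar of each pair) and for all 27025 genes with one (right bar). The ISRE-type share is 46.7% against 3.99% and the GAS-type share 23.3% against 9.55%.

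The comparison asked whether these genes stood at another level in Dll1-positive tumor cells after radiation. Many lay somewhat higher in both irradiated libraries, and the 4 with the smallest p, Oasl1, Rsad2, Oas3 and Mx1, were at 1.39-fold to 1.62-fold, but none passed the test over all genes. In 18 of the 41 members (43.9%) the irradiated libraries were both higher than either unirradiated one, as they were in 20.3% of all tested genes. They were both lower in 2 members (4.88%) and in 20.0% of all tested genes. Those 2 were Irf1 and Ifi44, and the count was 1 with DESeq2 size factors or upper-quartile scaling. The fitted log2 fold change was above 0 for 33 of 41 members (80.5%), against 50.5% of all tested genes, and its median was 0.14 against 0.0040.

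edgeR's quasi-likelihood test, adjusted over all 15993 genes, called 0 of 41 members higher and 0 lower, as it called 0.00% of all genes in each direction. The smallest adjusted p of any member was 0.489. At an unadjusted p under 0.05 it held 6 members higher (14.6%), against 6.82% of all genes, and 0 lower, against 2.44%. DESeq2 called 1 member higher, Oasl1, and 0 lower, where it called 2.96% of 14752 genes higher and 0.380% lower. limma-voom called 0 each way, as for all genes (0.00%). With no filter on low counts edgeR called 5 members higher (12.2%), against 4.86% of 27538 genes, and 0 lower, against 0.381%. The median was 0.059 without irradiated 1 and 0.21 without irradiated 2. With the lone irradiated library assumed to vary like the unirradiated pair, edgeR called 10 members higher (24.4%, against 14.4% of all genes) and 2 lower (4.88%, against 7.77%) without irradiated 1. Without irradiated 2 it called 16 higher (39.0%, against 12.6% of all genes) and 0 lower, against 13.4%.

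**Figure D3:**
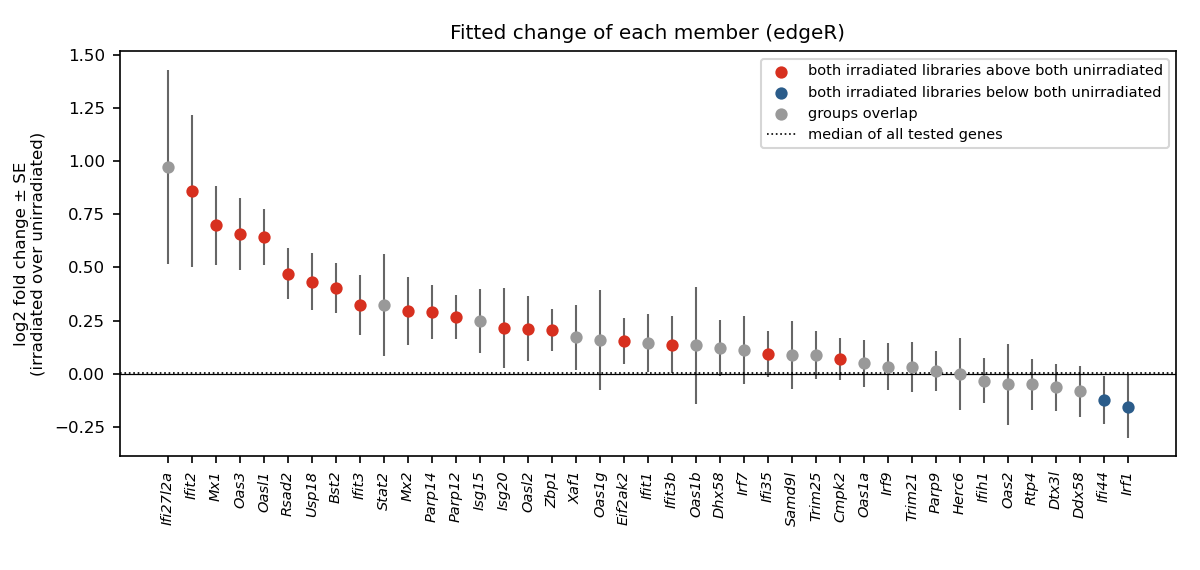
Fitted log2 fold change of each member, irradiated over unirradiated, with its SE, ordered from highest to lowest. Red points mark the 18 members whose irradiated libraries both lie above both unirradiated ones, blue points the 2 that lie below and grey points those that overlap, and the dotted line is the median of all tested genes.

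Among the oligoadenylate synthetase family, Oasl1 and Oas3 stood apart from their unirradiated levels. Enzymes of this family make 2'-5' linked oligoadenylate when they bind double-stranded RNA, which activates the RNA-cutting enzyme RNase L. Oasl1 is a regulator without that product. Oasl1, which in mice restrains translation of Irf7, was at 68.1 and 56.6 CPM in irradiated cells against 40.8 and 39.0 CPM in unirradiated cells. Its means were 62.4 ± 8.12 and 39.9 ± 1.21 CPM (SD, n = 2 each), a log2 fold change of 0.64 (SE 0.13), with adjusted p = 0.489 by edgeR's quasi-likelihood test and 0.0382 by DESeq2. Oas3 was at 22.4 and 19.2 CPM in irradiated cells against 13.3 and 13.1 CPM in unirradiated cells (log2 fold change 0.66, SE 0.17). In both genes the irradiated libraries lay clear of the unirradiated ones, by more than the spread within either group.

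In 3 other members of the family irradiated 1 lay above and irradiated 2 below the unirradiated pair, a pattern that 14.1% of all tested genes held. Oas2, the most abundant of them per length, was at 271 CPM in irradiated 1, 192 CPM in irradiated 2 and 238 and 241 CPM in unirradiated cells, so the unirradiated libraries lay between the irradiated ones. Oas1g was likewise at 43.5 and 27.8 CPM in irradiated cells against 32.0 and 31.9 CPM in unirradiated cells, and Oas1b at 27.5 and 16.5 CPM in irradiated cells against 18.8 and 21.4 CPM in unirradiated cells. Oas1b is annotated as a polymorphic pseudogene, since common laboratory strains carry a truncated form that lacks the flavivirus resistance of wild-derived mice. Oas1a stayed within a narrow band, at 55.0 and 58.7 CPM in irradiated cells against 57.3 and 52.7 CPM in unirradiated cells. Oasl2 was at 188 and 145 CPM in irradiated cells against 143 and 145 CPM in unirradiated cells, so irradiated 2 lay only just above the unirradiated pair. Leaving out irradiated 1 turned the log2 fold changes of Oas1g and Oas1b to -0.21 and -0.28, and leaving out irradiated 2 turned that of Oas2 to 0.18. Reads of Oas1a and Oas1g are hard to tell apart, since 68.8% of the 31-base words of Oas1a transcripts also occur in transcripts of other genes, and 68.7% in those of Oas1g.

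Of 8 direct effectors, 6 were higher in both irradiated libraries, a place that 20.3% of all tested genes held, among them the genes of the Mx GTPases, viperin and tetherin. Mx1, an interferon-induced GTPase that traps viral nucleoproteins, was at 33.1 and 25.5 CPM in irradiated cells against 19.0 and 17.2 CPM in unirradiated cells (log2 fold change 0.70, SE 0.19, edgeR adjusted p = 0.489). The C57BL/6 strain, like most laboratory strains, carries a defective Mx1 allele. Mx2, also a polymorphic pseudogene in the annotation, was at 38.8 and 31.2 CPM in irradiated cells against 29.7 and 27.3 CPM in unirradiated cells. Rsad2, which encodes viperin, an enzyme that makes a chain-terminating nucleotide, was at 111 and 95.9 CPM in irradiated cells against 76.8 and 72.2 CPM in unirradiated cells (log2 fold change 0.47, SE 0.12). Its neighbor Cmpk2, the nucleotide kinase gene that supplies viperin with substrate, was at 50.04 and 49.6 CPM in irradiated cells against 47.2 and 47.9 CPM in unirradiated cells, a difference of 0.068 on the log2 scale (SE 0.10). Bst2 was at 145 and 139 CPM in irradiated cells against 115 and 99.6 CPM in unirradiated cells (log2 fold change 0.40, SE 0.12). None of these groups overlapped.

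Isg20, an RNA exonuclease gene, was at 12.6 and 13.3 CPM in irradiated cells against 11.1 and 11.2 CPM in unirradiated cells, which is apart but small. Samd9l, a translation-inhibiting antiviral gene, was at 48.3 CPM in irradiated 1, 63.0 CPM in irradiated 2 and 49.9 and 54.7 CPM in unirradiated cells, and its log2 fold change was 0.089 with both irradiated libraries and -0.11 without irradiated 2. Rtp4, a zinc-finger gene of the interferon response, was at 93.7 and 93.2 CPM in irradiated cells against 105 and 88.9 CPM in unirradiated cells, with both irradiated libraries inside the unirradiated span and a log2 fold change of -0.050 that became 0.074 without unirradiated 1.

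The IFIT proteins, which bind viral RNA that lacks host cap marks, included a gene with a wide split between the irradiated libraries. Ifit2 was at 22.5 CPM in irradiated 1, 45.5 CPM in irradiated 2 and 20.6 and 16.8 CPM in unirradiated cells (log2 fold change 0.86, SE 0.36, edgeR adjusted p = 0.556). Both irradiated libraries were above, irradiated 1 only just, and the log2 fold change was 0.26 without irradiated 2. Ifit3, the most abundant per length, was at 91.1 and 72.2 CPM in irradiated cells against 64.8 and 65.8 CPM in unirradiated cells, and Ifit3b at 29.5 and 26.7 CPM in irradiated cells against 25.3 and 25.8 CPM in unirradiated cells. Since 61.8% of the 31-base words of Ifit3 also occur in Ifit3b, the sum of both is the safer value, and it was 121 and 98.9 CPM in irradiated cells against 90.03 and 91.6 CPM in unirradiated cells. Ifit1 was at 82.2 and 99.6 CPM in irradiated cells against 85.9 and 78.6 CPM in unirradiated cells, with irradiated 1 inside the unirradiated span, and without irradiated 2 its log2 fold change of 0.14 became -0.0018. The 4 genes lie within 99.3 kb of chromosome 19 (34550694 to 34650009).

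Of the ISG15 system, Usp18 was higher in both irradiated libraries by nearly the same amount. Usp18, the protease that removes ISG15 and damps type I interferon signaling, was at 37.2 CPM in both irradiated libraries, with 29.5 and 25.6 CPM in unirradiated cells (log2 fold change 0.43, SE 0.13, edgeR adjusted p = 0.492). Isg15 itself was at 78.8 CPM in irradiated 1, 97.7 CPM in irradiated 2 and 79.3 and 69.3 CPM in unirradiated cells, so irradiated 1 lay between the unirradiated libraries. Herc6, the ligase that attaches ISG15 in mice, was at 22.5 and 18.5 CPM in irradiated cells against 20.2 and 20.9 CPM in unirradiated cells, with a log2 fold change of -0.0012 whose sign differed between settings. Trim25, a ubiquitin ligase that acts on RIG-I, was at 121 and 109 CPM in irradiated cells against 104 and 112 CPM in unirradiated cells. Trim21, an antibody receptor in the cytosol, was at 37.6 and 34.5 CPM in irradiated cells against 35.8 and 34.7 CPM in unirradiated cells, and without irradiated 1 its log2 fold change of 0.032 became -0.034.

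Of the 4 transcription factors, 0 lay above in both irradiated libraries and 1 below, against 20.3% and 20.0% of all tested genes, so these counts are near the background. Stat2, a transcription factor gene of type I interferon signaling, was at 234 CPM in irradiated 1, 146 CPM in irradiated 2 and 148 and 156 CPM in unirradiated cells (log2 fold change 0.32, SE 0.24, edgeR adjusted p = 0.764), and without irradiated 1 the log2 fold change was -0.064. Irf7, which amplifies interferon alpha production, was at 361 and 283 CPM in irradiated cells against 308 and 288 CPM in unirradiated cells, and Irf9, the DNA-binding part of the ISRE complex, at 163 and 148 CPM in irradiated cells against 151 and 153 CPM in unirradiated cells. Without irradiated 1 their log2 fold changes turned to -0.077 and -0.039. In each of these 3 genes irradiated 1 was the highest library and irradiated 2 the lowest, as in 14.1% of all tested genes. Irf1 was at 671 and 574 CPM in irradiated cells against 697 and 689 CPM in unirradiated cells (log2 fold change -0.15, SE 0.15), below in both irradiated libraries and most so in irradiated 2. Its log2 fold change was -0.27 without irradiated 1 and -0.047 without irradiated 2.

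Among the nucleic acid sensors, Zbp1, a sensor of left-handed nucleic acid that can start cell death, was at 77.5 and 75.6 CPM in irradiated cells against 64.7 and 68.3 CPM in unirradiated cells (log2 fold change 0.20, SE 0.099, edgeR adjusted p = 0.613). Eif2ak2, which encodes PKR, a kinase that halts translation on double-stranded RNA, was at 70.8 and 63.3 CPM in irradiated cells against 60.6 and 59.9 CPM in unirradiated cells. Both irradiated libraries were above in these 2 genes. Ddx58, which encodes the RNA sensor RIG-I, was at 119 and 102 CPM in irradiated cells against 116 and 118 CPM in unirradiated cells, and Ifih1, which encodes the long-RNA sensor MDA5, at 107 and 103 CPM in irradiated cells against 112 and 103 CPM in unirradiated cells. Dhx58, which encodes their regulator LGP2, was at 57.1 and 47.2 CPM in irradiated cells against 47.0 and 48.8 CPM in unirradiated cells. These last 3 had log2 fold changes between -0.082 and 0.12, each of which changed sign when 1 library was left out: Ddx58 was at 0.024 without irradiated 2, Ifih1 at 0.027 without unirradiated 1 and Dhx58 at -0.025 without irradiated 1.

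Among the PARP genes, whose products attach ADP-ribose to proteins, Parp12 was at 63.9 and 59.3 CPM in irradiated cells against 51.5 and 51.0 CPM in unirradiated cells (log2 fold change 0.26, SE 0.10, edgeR adjusted p = 0.539). Parp14 was at 97.6 and 82.8 CPM in irradiated cells against 71.0 and 76.7 CPM in unirradiated cells. Parp9 and the ubiquitin ligase gene Dtx3l, whose products work as a complex, were nearly level, at 79.1 and 80.0 CPM in irradiated cells against 78.5 and 79.3 CPM in unirradiated cells for Parp9 and 69.7 and 62.8 CPM in irradiated cells against 71.2 and 67.3 CPM in unirradiated cells for Dtx3l. The log2 fold change of Parp9, 0.012, changed sign under 2 of the settings, and that of Dtx3l, -0.064, became 0.0081 without irradiated 2. The exons of Parp9 share 9.40% of their bases with Dtx3l on the opposite strand, and the library kit keeps no strand.

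Ifi27l2a had the highest fitted log2 fold change of the members and the widest ratio between the irradiated libraries, 2.37-fold. This gene for a small mitochondrial or nuclear membrane protein was at 12.2 CPM in irradiated 1, 28.8 CPM in irradiated 2 and 12.3 and 8.55 CPM in unirradiated cells (log2 fold change 0.97, SE 0.46, edgeR adjusted p = 0.601), so only irradiated 2 lay outside the unirradiated span. Its log2 fold change was 1.45 without irradiated 1 and 0.21 without irradiated 2. Ifi44 was at 55.7 and 50.5 CPM in irradiated cells against 60.0 and 55.9 CPM in unirradiated cells (log2 fold change -0.12, SE 0.11), with irradiated 1 just below, and its log2 fold change was -0.056 without irradiated 2 and -0.20 without irradiated 1. Ifi35 was at 51.5 and 52.3 CPM in irradiated cells against 50.9 and 46.5 CPM in unirradiated cells. Xaf1, a gene of the antagonist of the apoptosis inhibitor XIAP, was at 52.5 and 42.6 CPM in irradiated cells against 45.3 and 39.2 CPM in unirradiated cells, with irradiated 2 inside the unirradiated span.

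Set beside each other, the irradiated libraries did not carry the same profile. Irradiated 1 lay above both unirradiated libraries in 30 of 41 members (73.2%), against 41.1% of all tested genes, and below both in 3 (7.32%), against 42.7%. Irradiated 2 lay above both in 24 (58.5%), against 40.3% of all genes, and below both in 13 (31.7%), against 39.4%. The level was higher in irradiated 1 than in irradiated 2 for 32 of 41 members (78.0%), against 45.5% of all genes. Irradiated 1 was above and irradiated 2 below the unirradiated pair in 9 members: Ddx58, Irf7, Irf9, Stat2, Oas1b, Oas1g, Oas2, Herc6 and Trim21. The reverse held for Samd9l alone. Ifit2 and Ifi27l2a differed over 2-fold between the irradiated libraries, both higher in irradiated 2, and no member differed that much between the unirradiated ones. The median absolute log2 difference between the libraries of a group was 0.22 in members for the irradiated pair and 0.083 for the unirradiated pair, against 0.33 and 0.13 for all tested genes. The counts above or below the unirradiated pair all rest on the same 2 unirradiated libraries.

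**Figure D4:**
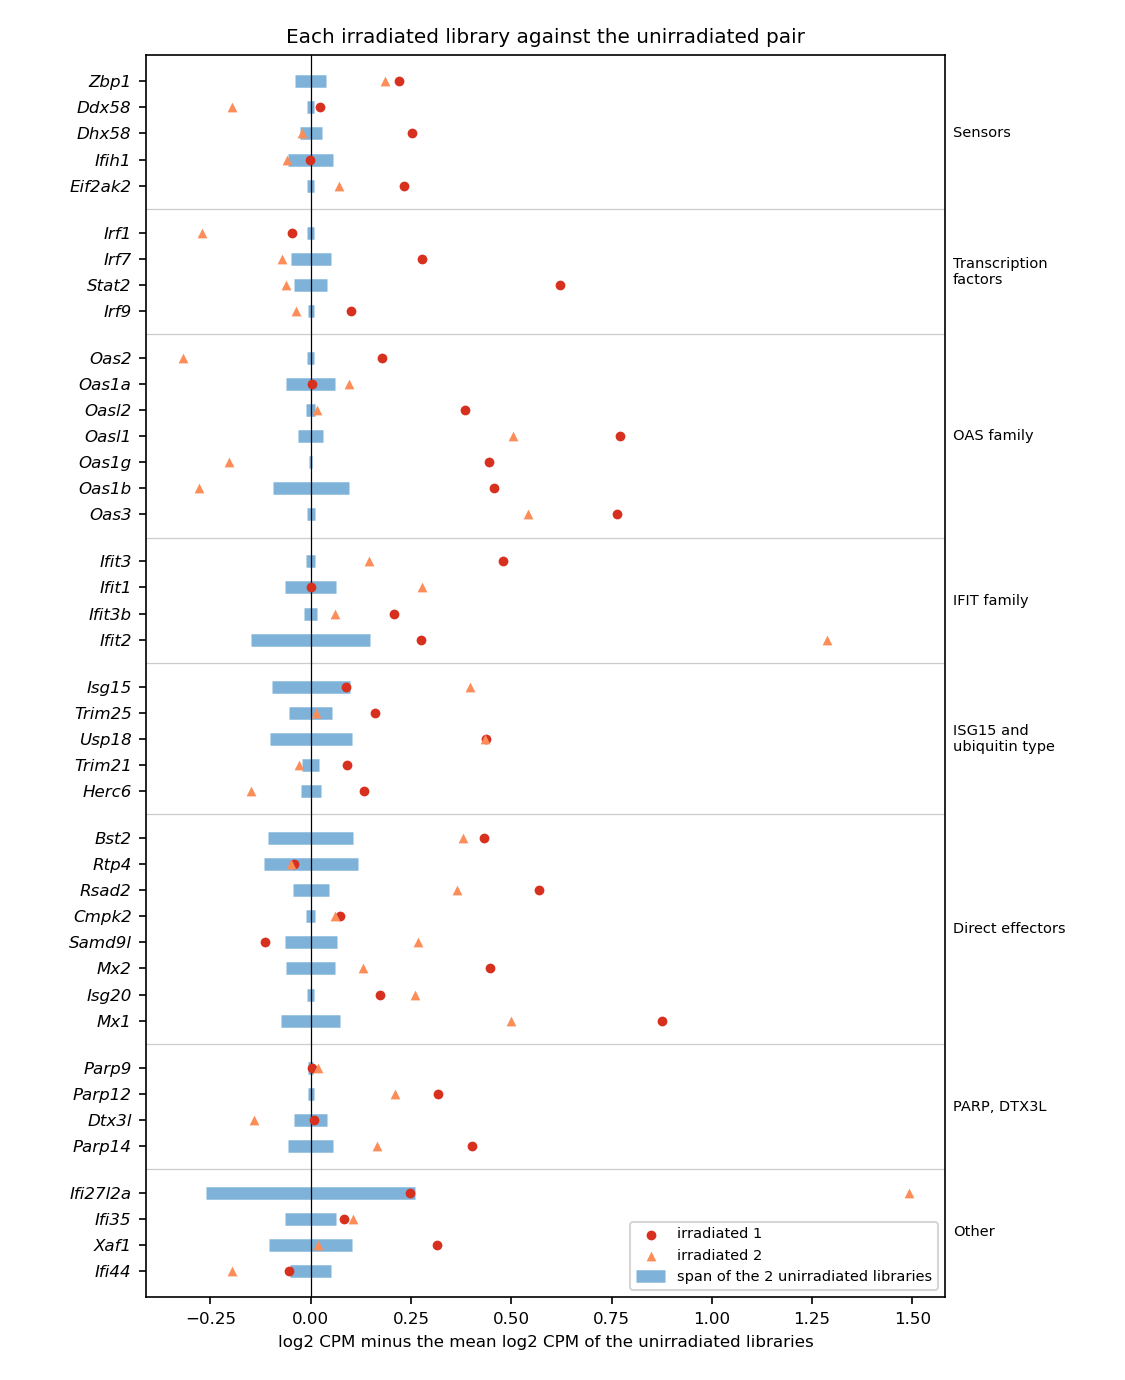
Log2 CPM (no prior count) of each member in irradiated 1 (circles) and irradiated 2 (triangles) minus the mean of the unirradiated libraries, whose own span is the blue bar. Circles lie right of the bar for 30 of 41 members and triangles for 24, and Ifit2 and Ifi27l2a have triangles far to the right.

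Summed over the 41 members, the level was 4072 CPM in irradiated 1, 3571 CPM in irradiated 2 and 3608 and 3521 CPM in unirradiated cells, so irradiated 2 lay between them. Abundant Irf1, Irf7 and Oas2 weigh most in such a sum. The OAS family summed to 675 and 516 CPM in irradiated cells against 543 and 544 CPM in unirradiated cells. The 4 IFIT genes summed to 225 and 244 CPM in irradiated cells against 197 and 187 CPM in unirradiated cells, and the direct effectors (Mx1, Mx2, Rsad2, Cmpk2, Isg20, Bst2, Samd9l and Rtp4) to 532 and 511 CPM in irradiated cells against 454 and 419 CPM in unirradiated cells. The IFIT and effector sums were thus higher in both irradiated libraries, while the OAS sum was higher in irradiated 1 and lower in irradiated 2.

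Upstream of these genes, interferon transcripts themselves were scarce. Of 21 interferon genes listed, 13 had no count in any library. Ifnb1, the interferon beta gene, had 17 counts in irradiated 1 and 121 in irradiated 2, against 20 and 22 in the unirradiated libraries (log2 fold change 1.69, SE 0.97, edgeR adjusted p = 0.67), and without irradiated 2 the log2 fold change was -0.38. Ifng, the interferon gamma gene made mainly by lymphocytes, had 6 and 99 counts in irradiated cells against 2 and 2 in unirradiated cells and did not pass the filter on low counts. The other 6 with any count had at most 10 in a library.

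Receptor and signaling genes were measured at moderate levels, and 0 of 10 passed edgeR's test in either direction, with 5 of 10 above in both irradiated libraries and 0 below, against 20.3% and 20.0% of all tested genes. Jak2 was at 58.2 and 72.3 CPM in irradiated cells against 46.5 and 50.8 CPM in unirradiated cells. Ifnar1 was at 51.7 and 60.1 CPM in irradiated cells against 45.1 and 44.9 CPM in unirradiated cells, whereas Ifnar2, the other receptor chain for type I interferon, was at 39.2 and 55.2 CPM in irradiated cells against 43.5 and 41.5 CPM in unirradiated cells and had a log2 fold change of -0.12 without irradiated 2.

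Of 14 tested genes of nucleic acid sensing and interferon induction, 4 lay above in both irradiated libraries and 3 below, near the 20.3% and 20.0% of all tested genes, and 0 passed edgeR. Irf5, a factor abundant in myeloid cells, was at 4.54 and 24.6 CPM in irradiated cells against 2.12 and 1.42 CPM in unirradiated cells, and Myd88, the Toll-like receptor adaptor gene, at 98.5 and 99.3 CPM in irradiated cells against 116 and 116 CPM in unirradiated cells. Of 6 feedback inhibitors 2 lay above and 1 below, which is also near those shares. Socs1, which blocks JAK kinases, was at 14.7 and 17.3 CPM in irradiated cells against 7.80 and 7.08 CPM in unirradiated cells (log2 fold change 1.11, SE 0.21, edgeR adjusted p = 0.489, DESeq2 adjusted p = 0.0138). The phosphatase gene Ptpn2 was at 87.2 and 75.6 CPM in irradiated cells against 104 and 105 CPM in unirradiated cells. The ISG15 conjugation genes Uba7 and Ube2l6 were at 143 and 103 CPM in irradiated cells against 107 and 122 CPM in unirradiated cells for Uba7, and at 9.58 and 14.7 CPM in irradiated cells against 7.36 and 7.79 CPM in unirradiated cells for Ube2l6. Without irradiated 1 the log2 fold change of Uba7 was -0.15.

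Among 47 tested further interferon-stimulated genes, 23 lay above in both irradiated libraries and 2 below, against 20.3% and 20.0% of all tested genes. None of the 47 passed edgeR, and their median log2 fold change was 0.21, against 0.0040 for all tested genes. At an unadjusted p under 0.05 by edgeR 7 were higher and 2 lower, against 6.82% and 2.44% of all tested genes. Iigp1, an immunity-related GTPase gene, was at 84.1 and 81.8 CPM in irradiated cells against 55.3 and 53.7 CPM in unirradiated cells (log2 fold change 0.61, SE 0.097, edgeR adjusted p = 0.489, DESeq2 adjusted p = 0.00697). Ifi204, a DNA-binding protein gene of the p200 family, was at 17.2 and 26.0 CPM in irradiated cells against 9.14 and 10.3 CPM in unirradiated cells.

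The summed level of each list of markers of other cells was higher in both irradiated libraries, and most of all in irradiated 2. All 15 macrophage and monocyte markers were higher in both irradiated libraries than in both unirradiated ones, a place that 20.3% of all tested genes held. The sum of these 15 was 3.47 and 24.5 times the unirradiated mean in irradiated 1 and irradiated 2. Counts for the lists below include markers too low to be tested. Those tested were 9 of 15 lymphocyte, 4 of 10 dendritic cell, 5 of 10 neutrophil and 3 of 6 red cell markers. The 15 lymphocyte markers summed to 22.5 and 140.4 CPM in irradiated cells against 6.16 and 6.55 CPM in unirradiated cells, with 11 of 15 above. For dendritic cells the 10 markers summed to 10.2 and 75.7 CPM in irradiated cells against 6.01 and 8.26 CPM in unirradiated cells, with 5 of 10 above, and for neutrophils to 13.2 and 121 CPM in irradiated cells against 5.39 and 9.32 CPM in unirradiated cells, with 6 of 10 above. Endothelial markers summed to 53.1 and 735 CPM in irradiated cells against 30.7 and 29.6 CPM in unirradiated cells, with 8 of 10 above, and fibroblast markers to 916 and 6181 CPM in irradiated cells against 725 and 743 CPM in unirradiated cells, with 6 of 10 above. The 6 red cell markers summed to 5.85 and 35.1 CPM in irradiated cells against 2.02 and 4.36 CPM in unirradiated cells, with 3 of 6 above. In irradiated 2 none of the listed markers of these cells was at 0, whereas in the unirradiated libraries the macrophage markers Itgam, Fcgr1 and Ms4a7 were at 0 counts in unirradiated 2, and the dendritic cell markers Siglech and Cd209a, the neutrophil marker Ly6g, the natural killer cell marker Ncr1 and the globin gene Hba-a2 were at 0 in both. Of the 41 members, 32 (78.0%) were higher in irradiated 1 than in irradiated 2, against 45.5% of all tested genes. Oasl1, Mx1, Oas3 and Rsad2 were among the 32, and Ifit2 and Ifi27l2a were among the rest. In irradiated 1 the sums of these marker lists were 1.25 to 3.54 times the unirradiated mean. The part of these cells in the values of the 41 members was not tested.

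**Figure D5:**
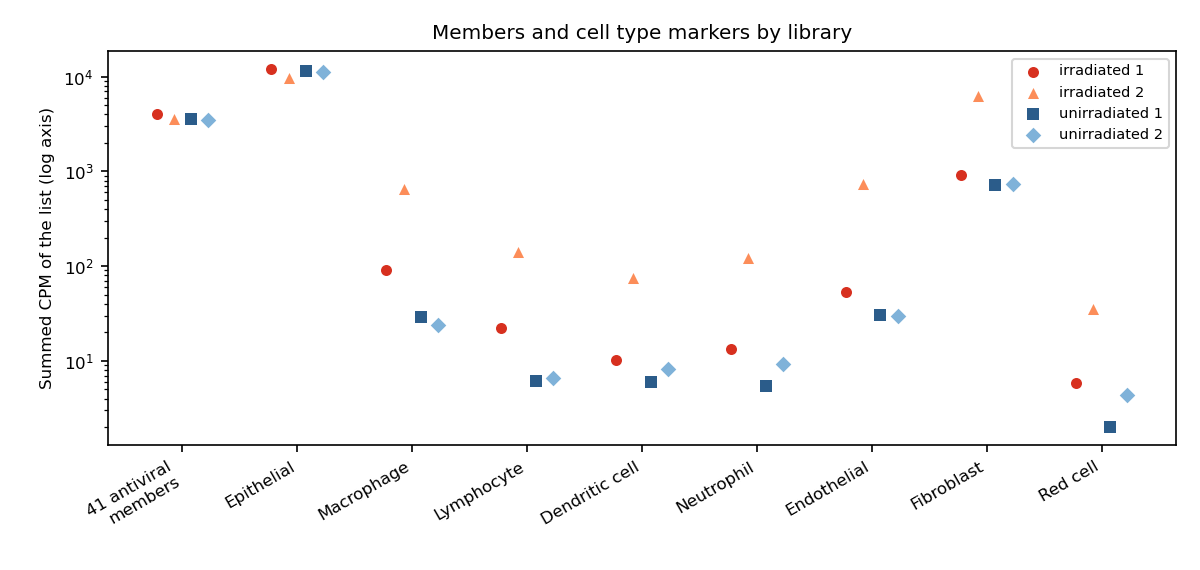
Summed CPM (log axis) of the 41 members, of epithelial markers and of 7 lists of other cell type markers, with 1 point per library. The members and epithelial markers are nearly level across the 4 libraries, while each of the other lists is highest in irradiated 2, as for macrophage markers at 645 CPM against 91.4 CPM in irradiated 1 and 28.8 and 23.9 CPM in the unirradiated libraries.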

How the data were processed

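Poly(A) RNA of sorted Dll1-mCherry-positive tumor cells was sequenced in 2 irradiated and 2 unirradiated libraries with a non-directional kit, per the labels' protocols. What the authors deposited is a table of raw counts for each gene, unnormalized, with its name, position and length. STAR 2.5, HTSeq 0.6.1, DESeq2 and the mm10 build are named in the submitters' processing notes, while the sources used here state neither annotation release nor counting options. Titles gave each library's group and number.

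Genes were kept by filterByExpr (minimum count 10, total 15), scaled by TMM and tested with the quasi-likelihood test of edgeR 4.0.16 in R 4.3.3, two-sided, at a threshold of 0.05 on p-values adjusted by Benjamini-Hochberg across every tested gene. SE is the size of the log2 fold change divided by the root of the F statistic. Log2 differences used a prior count of 2. DESeq2 1.42.0, limma 3.58.1 (voom), other scalings and filters, a robust fit, a threshold of 0.1, the replicate block and leaving out each library were alternatives. For a single value, exact permutation of these 4 libraries allows no p under 0.333. The edgeR fit was checked on simulated counts. Both groups had the same spread there, so the check does not cover the unequal spread of these libraries. Transcript words of 31 bases and exon overlaps came from GENCODE M21 (GRCm38), where all 41 members have the deposited positions.

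The members, lists and alternatives were chosen with earlier results of these data known. Values in every library follow a rule: the smallest p and the highest level per role, and the 8 smallest p in each direction. The other members are given more briefly, and Ifnar1, Ifnar2, Ifnb1, Ifng and the 2 smallest p of each pathway list were added, except what is not reported here. Counting errors cover counting alone.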

Additional observations from a re-analysis of the deposited data

How the results depend on the processing

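The members' median log2 fold change kept its direction under every alternative run, at 0.13 to 0.15, and at 0.059 to 0.21 when 1 library was left out. Calls over all genes did not hold still. Genes higher numbered 0 with edgeR, 1338 with no filter on low counts, 2 with the replicate block, 437 with DESeq2 and 0 to 2300 with 1 library left out. Genes lower numbered 0, 105 with no filter, 56 with DESeq2 and 0 to 2147 with 1 library left out. Members higher numbered 0, 5 with no filter, 1 with DESeq2 and 0 to 16 with 1 library left out, and members lower 0 to 2. Members above in both irradiated libraries numbered 18, against 20.3% of all tested genes. They numbered 17 with library size alone or no filter, and 20 with DESeq2 size factors or the CPM minimum. Members below in both numbered 2, against 20.0%. The count was 1 with DESeq2 size factors, upper-quartile scaling or a CPM above 1 in 2 libraries. With 1 library left out, 21 to 30 lay above and 1 to 13 below, places easier to hold with fewer libraries. With the main scaling, irradiated 1 alone lay above both unirradiated libraries in 41.1% of all tested genes and below in 42.7%. For irradiated 2 these shares were 40.3% and 39.4%. Shares over all genes under the other settings are not given. Without an irradiated library the spread came from the close unirradiated pair alone, and without an unirradiated library edgeR called 0 genes. The cause of the other differences was not tested.

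The log2 fold change of Herc6 turned to 0.0058 with DESeq2 size factors, 0.0063 with the CPM minimum and 0.0060 with DESeq2, and that of Parp9 to -0.0018 with library size alone and -0.0012 with no filter. With 1 library left out, log2 fold changes that changed sign spanned -0.087 to 0.027 for Ifih1, -0.20 to 0.024 for Ddx58, -0.025 to 0.25 for Dhx58, -0.077 to 0.28 for Irf7, -0.039 to 0.10 for Irf9, -0.064 to 0.62 for Stat2, -0.011 to 0.11 for Oas1a, -0.28 to 0.46 for Oas1b, -0.21 to 0.44 for Oas1g. They also spanned -0.32 to 0.18 for Oas2, -0.0018 to 0.27 for Ifit1, -0.15 to 0.13 for Herc6, -0.034 to 0.091 for Trim21, -0.11 to 0.27 for Samd9l, -0.16 to 0.074 for Rtp4, -0.15 to 0.0081 for Dtx3l, -0.38 to 2.52 for Ifnb1, -0.15 to 0.32 for Uba7, -0.12 to 0.37 for Ifnar2. With 2 pairs, same-numbered libraries had a correlation of deviations of -0.099 across genes. With so few libraries this value cannot decide whether equal numbers mark a shared animal or day, which the labels do not state. The replicate block called 0 members. The lowest count of a member in any library was 145.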

Other observations

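Oas1a and Oas1g, whose transcripts share most of their sequence, had different shares of their summed level in the irradiated libraries. The sum was 98.6 and 86.5 CPM in irradiated 1 and irradiated 2, against 89.4 and 84.6 CPM in the unirradiated libraries. Oas1a held 55.8% and 67.9% of it in the irradiated libraries, against 64.1% and 62.3% in the unirradiated ones. For Ifit3 and Ifit3b the share of Ifit3 was 75.5% and 73.0%, against 71.9% and 71.8%. How the authors' counting placed reads that match both copies is not given in the sources used here.

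In clusters on the chromosome, neighbors did not always share a pattern. Within 177 kb of chromosome 5 (120730333 to 120907521), Oas3 alone of 5 members lay above in both irradiated libraries. Rsad2 and Cmpk2, within 37.1 kb of chromosome 12, both did, and so did Mx1 and Mx2, and Oasl1 and Oasl2. Of the 4 IFIT genes 3 did, and of Parp14, Dtx3l and Parp9 only Parp14 did. Over all tested genes the share was 20.3%.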
